A study of Mus musculus with 25 samples.

Results

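The G protein-coupled receptors described here are 10 genes of mouse pancreatic islets, chosen by symbol in the expression values of all 4 deposited tables: Glp1r, Gipr, Gcgr, Ffar1, Ffar2, Ffar3, Gpr119, Adra2a, Sstr3 and Chrm3. They are 10 of 17885 genes listed in any of the tables, and 10 of 10 reached the filter on low values in every table. Islet messenger RNA had been sequenced in a study of BAF60C, the chromatin remodelling subunit encoded by Smarcd3, and every sample pooled the islets of 3 or more mice. Values were deposited for 19 libraries in 8 groups. The high-fat diet (HFD) table holds 2 libraries labelled BcBKO HFD, in which beta cells carry an ablation made with Pdx1-cre, and 2 labelled flox/flox HFD, fed for 3 months. Pdx1-cre is driven by the promoter of a pancreatic transcription factor, and the labels spell out neither the ablated gene nor which groups carry the cre. The PBS table holds 2 KO_REG3B-Fc, 2 KO_PBS and 2 CTR_PBS libraries, and the db table holds db_REG3B and db_GFP libraries, 2 of each. The labels leave out the gene meant by KO, the meaning of db, and how REG3B, REG3B-Fc, GFP or PBS was given. The 5 WT libraries form 1 group with no comparison. Age was not given in the sources used here, and values after ± are SDs.

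G protein-coupled receptors let islet cells read hormones, nutrients and nerve signals. Receptors that couple to the stimulatory G protein (the incretin receptors encoded by Glp1r and Gipr, the glucagon receptor encoded by Gcgr, and the lipid amide receptor encoded by Gpr119) raise cyclic AMP and enhance glucose-stimulated insulin secretion in beta cells. Ffar1, which binds long-chain fatty acids, and Chrm3, the muscarinic acetylcholine receptor, act through phospholipase C. Adra2a, an adrenaline receptor, and Sstr3, a somatostatin receptor, couple to inhibitory G proteins and restrain secretion, and Ffar2 and Ffar3 bind short-chain fatty acids.

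Ffar1, Ffar2 and Ffar3, the fatty acid receptors, share a gene cluster. On mouse build GRCm38.p6, Ffar2 (chr7:30818031-30823775), Ffar3 (chr7:30854330-30856178) and Ffar1 (chr7:30860568-30861470) lie on the minus strand within 43440 bases, 30554 bases between Ffar2 and Ffar3 and 4389 between Ffar3 and Ffar1. Each has 1 coding exon. Gipr is on the same chromosome (chr7:19156063-19170248, minus strand, 13 coding exons). The other receptors are Glp1r (chr17:30901867-30936510, plus strand, 13 coding exons), Gcgr (chr11:120529185-120538989, plus strand, 13 coding exons), Gpr119 (chrX:48667979-48674478, minus strand), Adra2a (chr19:54045259-54048982, plus strand), Sstr3 (chr15:78537014-78549365, minus strand) and Chrm3 (chr13:9875486-10361062, minus strand). The annotation places genes on the opposite strand within Glp1r, Gcgr and Chrm3. Whether counting used strand is not given in the sources used here, so reads of these 3 receptors and of the opposite-strand genes may not be told apart.

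The start windows of the 3 clustered receptors are shown because Ffar2 and its neighbours had unlike changes in BcBKO HFD against flox/flox HFD. No receptor passed the test there. In the other comparisons below, the changes of all 3 had the same sign after median scaling. Each runs 5′ to 3′ on the gene's strand, 250 bases before to 50 bases after the start, from the RefSeq promoter table of build GRCm38.p6 (Ffar1 chr7:30861421-30861720, the first start of Ffar2 chr7:30823726-30824025, Ffar3 chr7:30856129-30856428). Capitals mark matches to the letters searched on both strands: CAGATG (an E-box of NEUROD1 type), TAATTA (a homeodomain core), TGTTTAC (a FOXA core) and TGCTGAC (a core that MAF factors bind), none of which contains another.
Ffar1: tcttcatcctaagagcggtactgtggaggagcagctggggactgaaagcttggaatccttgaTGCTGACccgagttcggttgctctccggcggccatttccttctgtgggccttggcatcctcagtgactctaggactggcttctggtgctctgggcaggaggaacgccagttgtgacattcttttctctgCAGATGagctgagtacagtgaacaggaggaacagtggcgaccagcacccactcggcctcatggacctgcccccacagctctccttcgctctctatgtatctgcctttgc
Ffar2: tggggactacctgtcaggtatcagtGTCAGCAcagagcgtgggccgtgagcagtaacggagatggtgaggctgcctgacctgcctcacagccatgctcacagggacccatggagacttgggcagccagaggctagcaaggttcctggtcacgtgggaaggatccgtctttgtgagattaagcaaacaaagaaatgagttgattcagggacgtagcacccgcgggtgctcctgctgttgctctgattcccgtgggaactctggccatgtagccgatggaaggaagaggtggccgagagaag
Ffar3: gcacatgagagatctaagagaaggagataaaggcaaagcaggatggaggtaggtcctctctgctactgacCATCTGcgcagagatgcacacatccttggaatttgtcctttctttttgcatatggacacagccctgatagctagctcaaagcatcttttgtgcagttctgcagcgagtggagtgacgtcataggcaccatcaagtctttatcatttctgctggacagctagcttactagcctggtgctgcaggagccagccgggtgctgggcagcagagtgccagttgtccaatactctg
The Ffar1 window holds TGCTGAC 188 bases and CAGATG 59 bases before the start, the Ffar2 window TGCTGAC on the opposite strand 225 bases before it, and the Ffar3 window CAGATG on the opposite strand 180 bases before it. Of 32851 windows in the table, 17.15% hold CAGATG, 4.673% TGCTGAC, 5.291% TAATTA and 3.65% TGTTTAC. Start windows of 9 of the 10 receptors, 13 in all, were in the table. Besides the windows printed, 1 Sstr3 window holds CAGATG 30 bases after the start and the other 9 hold none of these letters. A match is a description of the letters, not a binding site.

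Across the 19 libraries, between 10402 and 12553 genes had at least 1 FPKM (fragments counted per kilobase of transcript and per library size), and sequencing depth is unknown. The libraries were islet by their hormone genes: Ins1 and Ins2 together made up 27.0 to 67.8% of summed FPKM, and no beta or alpha cell marker was listed at 0. Transcripts of 15 acinar (digestive enzyme) markers took 0.0528 to 45.8% of the sum. FPKM are relative to the whole library, so changes below are given after each library was divided by its median ratio to the other libraries of its table, and values on the deposited scale stand beside them. As deposited, the median gene shifted by -0.44 log2 in KO_PBS against CTR_PBS and by 0.53 in KO_REG3B-Fc against KO_PBS. The shift was 0.08 in BcBKO HFD against flox/flox HFD, 0.09 in KO_REG3B-Fc against CTR_PBS and -0.06 in db_REG3B against db_GFP. Smarcd3 was at 3.11 and 2.40 FPKM in BcBKO HFD, against 2.57 and 2.55 in flox/flox HFD, and at 0.75 and 1.09 FPKM in KO_PBS, against 1.03 and 1.15 in CTR_PBS. Both pairs overlap, so the Smarcd3 level does not check these labels, and which part of the gene is deleted is not stated.

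In level, Sstr3 led the receptors in 6 of 8 groups and Glp1r in the other 2. FPKM is per transcript length, so receptors can be set side by side within a library, while the 4 tables were normalised separately. In CTR_PBS islets Sstr3 averaged 69.0 ± 0.679 FPKM, Glp1r 55.4 ± 0.693, Adra2a 29.0 ± 0.948, Ffar1 26.8 ± 2.07 and Gipr 24.0 ± 1.15 (n = 2). Ffar2 (11.3 FPKM) and Chrm3 (11.1 FPKM) came next with overlapping libraries, and Gcgr (9.00 FPKM), Gpr119 (5.82 FPKM) and Ffar3 (4.43 FPKM) closed the order. Only the Ffar2 and Chrm3 ranges overlapped between neighbours there. Ffar3 was the lowest receptor in 5 groups, Gpr119 in both db groups, and Ffar2 in BcBKO HFD, where its range overlapped that of Ffar3.

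The db libraries stood apart in the Glp1r level. Glp1r had 245.74 and 270.59 FPKM in db_REG3B and 225.46 and 215.85 FPKM in db_GFP, which was 47.5 to 48.8% of the summed FPKM of the 10 receptors. In the other tables Glp1r lay between 20.24 and 55.87 FPKM and made up 13.9 to 22.6% of that sum. No test sets the db libraries against the others, because the tables share no group.

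**Figure D1:**
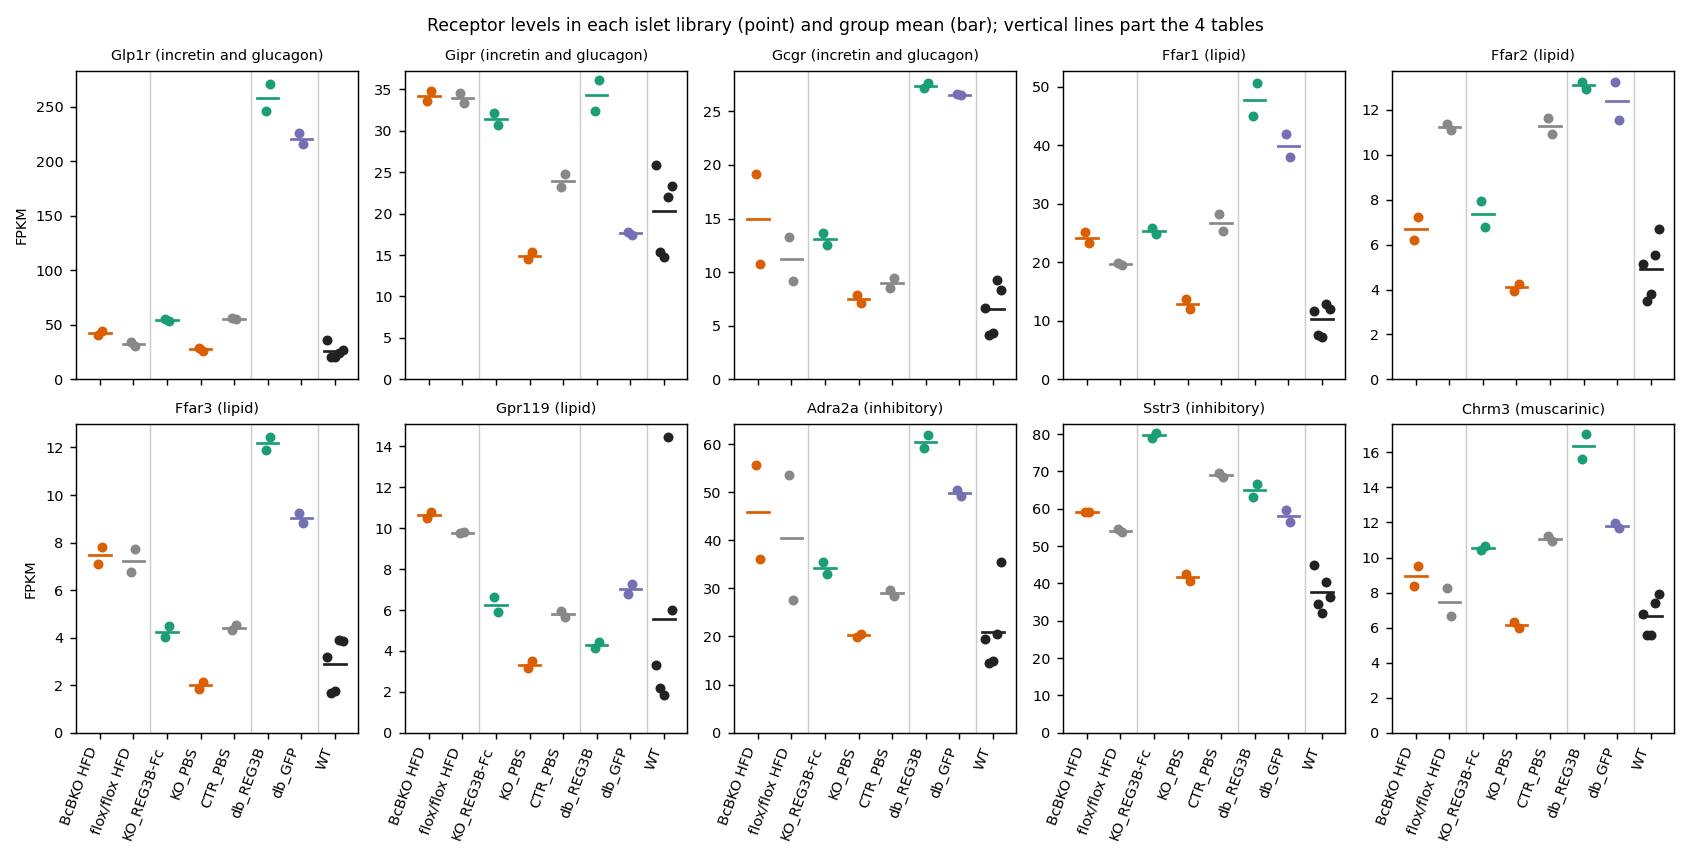
FPKM of each of the 10 receptors (one panel each, axis from 0) in every library (points) with the group mean (bars); vertical lines part the 4 separately normalised tables. Glp1r reached 215.85 to 270.59 FPKM in the 4 db libraries and at most 55.87 FPKM elsewhere. The KO_PBS points lie below CTR_PBS and KO_REG3B-Fc in all 10 panels on this deposited scale. Most genes moved likewise on it: 81.5% were called lower in KO_PBS against CTR_PBS, and 86.2% higher in KO_REG3B-Fc against KO_PBS.

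The 5 WT pools show how far the receptors vary among islets of 1 group. Gpr119 varied most: it had 3.30, 2.20, 1.86, 14.47 and 6.01 FPKM in WT replicates 1 to 5, a 7.78-fold range and a coefficient of variation of 94.0%. Replicate 4 was the high one, and it also held the most alpha cell marker RNA, with 6 markers at 3.41% of summed FPKM against 0.598 to 1.34% in the other 4. Its acinar marker share was the lowest, 5.59% against 28.1 to 45.8%. It was also highest in beta cell markers (64.7% against 28.6 to 42.4%), delta cell markers (0.555% against 0.159 to 0.343%) and PP cell markers (1.01% against 0.299 to 0.483%). The part of these cell types in the Gpr119 level was not tested.

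The other receptors differed less among WT pools. Sstr3 ranged between 32.12 and 44.86 FPKM, with a mean of 37.6 ± 5.08 FPKM (n = 5). Glp1r averaged 25.8 ± 6.58 FPKM, Gipr 20.3 ± 4.95, Adra2a 21.0 ± 8.54, Ffar1 10.3 ± 2.68 and Chrm3 6.65 ± 1.07. The ranges of Sstr3, Glp1r, Adra2a and Gipr overlapped between neighbours in the order, while Gipr and Ffar1 did not overlap. After median scaling the coefficient of variation was 7.49% for Ffar1 and 6.98% for Chrm3, 12.0% for Gipr, 20.5% for Glp1r and 27.3% for Adra2a, and it was still 78.8% for Gpr119. Adra2a was highest in WT replicate 5, at 35.48 FPKM against 14.49 to 20.5 FPKM in the other 4.

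**Figure D2:**
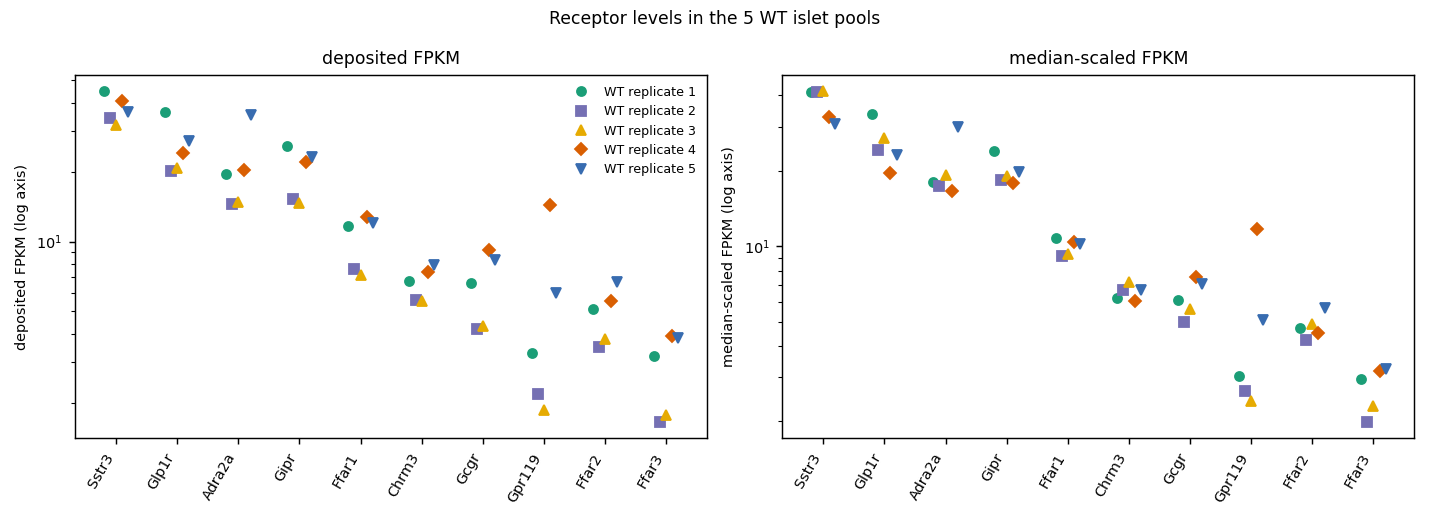
Level of each receptor (log axis, FPKM) in the 5 WT pools, as deposited (left) and after median scaling (right), with receptors in order of their mean. Gpr119 spans 1.86 to 14.47 FPKM as deposited, whereas Sstr3 spans 32.12 to 44.86 FPKM.

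In libraries labelled BcBKO HFD, set against flox/flox HFD, no receptor passed the test, and Ffar2 had the largest change. This comparison asks what the ablation does to islets under a high-fat diet. Ffar2, a short-chain fatty acid receptor, had 6.19 and 7.23 FPKM in BcBKO HFD, against 11.38 and 11.10 FPKM in flox/flox HFD. Both BcBKO HFD libraries lay below both flox/flox HFD libraries. Ffar2 differed by -0.76 log2 (SE 0.127, 95% interval -1.09 to -0.43) at an unadjusted p of 0.00181 and an adjusted p of 1.000 (limma, Benjamini-Hochberg over 11560 genes). Its change was the 0.104th percentile of all genes tested, and its TPM, deposited only for these 4 libraries, was 4.70 and 5.53 in BcBKO HFD against 7.95 and 8.83 in flox/flox HFD. The authors' deposited table gives Ffar2 a log2 fold change of -0.82 with an adjusted p of 0.00495, and Ffar2 is the only receptor that it calls, among 14 genes higher and 7 lower.

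The neighbours of Ffar2 in the cluster had no such gap below flox/flox HFD. Ffar3 had 7.09 and 7.83 FPKM in BcBKO HFD, against 6.76 and 7.72 FPKM in flox/flox HFD, and the groups overlapped. Ffar1 had 25.18 and 23.22 FPKM in BcBKO HFD, against 19.90 and 19.55 FPKM in flox/flox HFD. Its libraries were higher in BcBKO HFD without overlap, at 0.19 log2, which did not pass. Glp1r showed the same layout, with 40.49 and 44.05 FPKM in BcBKO HFD, against 34.34 and 30.58 FPKM in flox/flox HFD. Its difference was 0.27 log2 (95% interval -0.03 to 0.57; adjusted p = 1.000).

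Among the 10 receptors in the HFD table, limma called 0 higher (0.00865% of all genes tested) and 0 lower (0%), with 1 receptor and 298 of all genes at an unadjusted p under 0.05. After median scaling, groups did not overlap for 2 receptors that were higher, Glp1r and Ffar1 (12.9% of all genes), and for 2 that were lower, Gipr and Ffar2 (15.0% of all genes). For Gipr this was a difference of -0.09 log2 that turned to 0.01 on the deposited scale. Adra2a and Gcgr had the widest intervals. Adra2a had 55.67 and 36.12 FPKM in BcBKO HFD, against 53.50 and 27.61 FPKM in flox/flox HFD, so that replicates of 1 group differed more than the groups, and its interval ran from -0.77 to 1.00 log2. Gcgr had 19.15 and 10.76 FPKM in BcBKO HFD, against 13.29 and 9.16 FPKM in flox/flox HFD, and an interval of -0.49 to 1.01 log2. For both receptors replicate 1 was above replicate 2 in each group. Over all genes tested, replicate differences correlated at 0.670 between the HFD groups, which the main test does not take into account. The acinar marker share was 3.15 and 3.11% in BcBKO HFD, against 2.06 and 7.50% in flox/flox HFD.

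In libraries labelled KO_PBS, set against CTR_PBS, 8 of the 10 receptors fell and Gcgr alone rose relative to the median gene. Calls across all genes were 25.9% lower and 21.7% higher. The median of the 10 receptors was -0.29 log2, against -0.04 for all genes tested. On the deposited scale all 10 receptors fell, where 81.5% of all genes were called lower and 8.66% higher, and there Gcgr turned to -0.23 log2 (adjusted p = 0.0116). Relative to the sum of FPKM without acinar and REG genes, 7 receptors fell and 1 rose, where 17.7% of all genes were called lower and 23.9% higher. The PBS comparisons share libraries, so their results are not independent of each other.

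The lipid receptors fell furthest in KO_PBS as a class: 4 of 4 passed, with a median of -0.52 log2. Ffar2 had 3.92 and 4.26 FPKM in KO_PBS, against 11.63 and 10.94 FPKM in CTR_PBS. The groups did not overlap, and Ffar2 fell by 0.86 log2 (SE 0.0706, adjusted p = 2.65e-05), or by 1.27 log2 on the deposited scale. Ffar1 had 13.80 and 12.10 FPKM in KO_PBS, against 28.25 and 25.32 FPKM in CTR_PBS, and fell by 0.54 log2 (SE 0.0641, adjusted p = 0.000241). Ffar3 had 1.83 and 2.15 FPKM in KO_PBS, against 4.30 and 4.55 FPKM in CTR_PBS, and fell by 0.51 log2 (adjusted p = 0.00117). With 1 FPKM added before the log, the change of a receptor this low is understated. Gpr119 had 3.16 and 3.51 FPKM in KO_PBS, against 5.97 and 5.66 FPKM in CTR_PBS. It fell by 0.26 log2 (adjusted p = 0.0130), a call lost without CTR_PBS replicate 1 (adjusted p = 0.0732) or without KO_PBS replicate 1 (adjusted p = 0.0685).

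The incretin and glucagon receptors went different ways in KO_PBS. Glp1r had 28.69 and 26.23 FPKM in KO_PBS, against 55.87 and 54.89 FPKM in CTR_PBS. All KO_PBS values lay below those of CTR_PBS, and Glp1r fell by 0.51 log2 (SE 0.0439, adjusted p = 3.34e-05), or by 0.99 log2 on the deposited scale. Gipr had 14.49 and 15.32 FPKM in KO_PBS, against 23.18 and 24.80 FPKM in CTR_PBS. Its fall of 0.19 log2 (adjusted p = 0.0197) was lost without CTR_PBS replicate 2 (adjusted p = 0.133) or KO_PBS replicate 1 (adjusted p = 0.0984). It was also lost relative to the sum without acinar and REG genes (-0.15 log2, adjusted p = 0.0547) and with no filter on low values (adjusted p = 0.0557). Gcgr had 7.90 and 7.13 FPKM in KO_PBS, against 8.50 and 9.50 FPKM in CTR_PBS. Its FPKM was thus lower in KO_PBS and its median-scaled value higher, at 0.20 log2 (adjusted p = 0.0388), a call lost without CTR_PBS replicate 1 (adjusted p = 0.251) or KO_PBS replicate 1 (adjusted p = 0.166), with no filter (adjusted p = 0.105), or with only the libraries compared (adjusted p = 0.0536).

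The inhibitory receptors had a median of -0.13 log2 in KO_PBS. Sstr3 had 42.60 and 40.73 FPKM in KO_PBS, against 69.45 and 68.49 FPKM in CTR_PBS, and fell by 0.24 log2 (SE 0.0385, adjusted p = 0.00136). Adra2a had 19.97 and 20.47 FPKM in KO_PBS, against 29.67 and 28.33 FPKM in CTR_PBS. On the scaled values Adra2a differed by -0.03 log2 (adjusted p = 0.589; 0.01 log2 when scaled to the sum without acinar and REG genes), whereas on the deposited scale it fell by 0.50 log2. Chrm3 had 6.34 and 5.97 FPKM in KO_PBS, against 11.23 and 10.93 FPKM in CTR_PBS, and fell by 0.32 log2 (adjusted p = 0.000855). The authors' deposited table calls 7 receptors lower and 0 higher, leaving Gcgr, Gpr119 and Adra2a uncalled. Among all genes it calls 1908 lower and 2503 higher.

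Markers of several cell types changed too, in both directions, beside 25.9% of all genes lower and 21.7% higher. All 10 beta cell markers fell in KO_PBS (median -0.45 log2), with a summed share of 40.9 and 40.2% in KO_PBS against 60.4 and 61.3% in CTR_PBS. All 15 acinar markers rose, with a share of 34.7 and 35.7% in KO_PBS against 17.0 and 16.8% in CTR_PBS. All 7 immune markers tested rose (median 3.00 log2), with a share of 0.0279 and 0.0282% in KO_PBS against 0.00907 and 0.00834% in CTR_PBS. Cd3e was listed at 0 in CTR_PBS replicate 1 and Ms4a1 in both CTR_PBS libraries, and no beta cell marker was at 0. Alpha cell markers had 2 of 6 higher and 0 lower, with shares of 0.458 and 0.476% in KO_PBS against 0.535 and 0.520% in CTR_PBS. Stellate cell markers had 5 of 6 higher (median 1.62 log2), with a share of 0.00379 and 0.00372% in KO_PBS against 0.00134% in each CTR_PBS library. All 3 delta cell markers rose after scaling (median 0.35 log2), with a share of 0.115 and 0.127% in KO_PBS against 0.129 and 0.128% in CTR_PBS. Both PP cell markers rose after scaling too, with a share of 0.196 and 0.210% in KO_PBS against 0.212 and 0.219% in CTR_PBS. The part of these cell types in the receptor changes was not tested, and in pooled islets fewer cells of a type and less RNA per cell cannot be told apart.

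**Figure D3:**
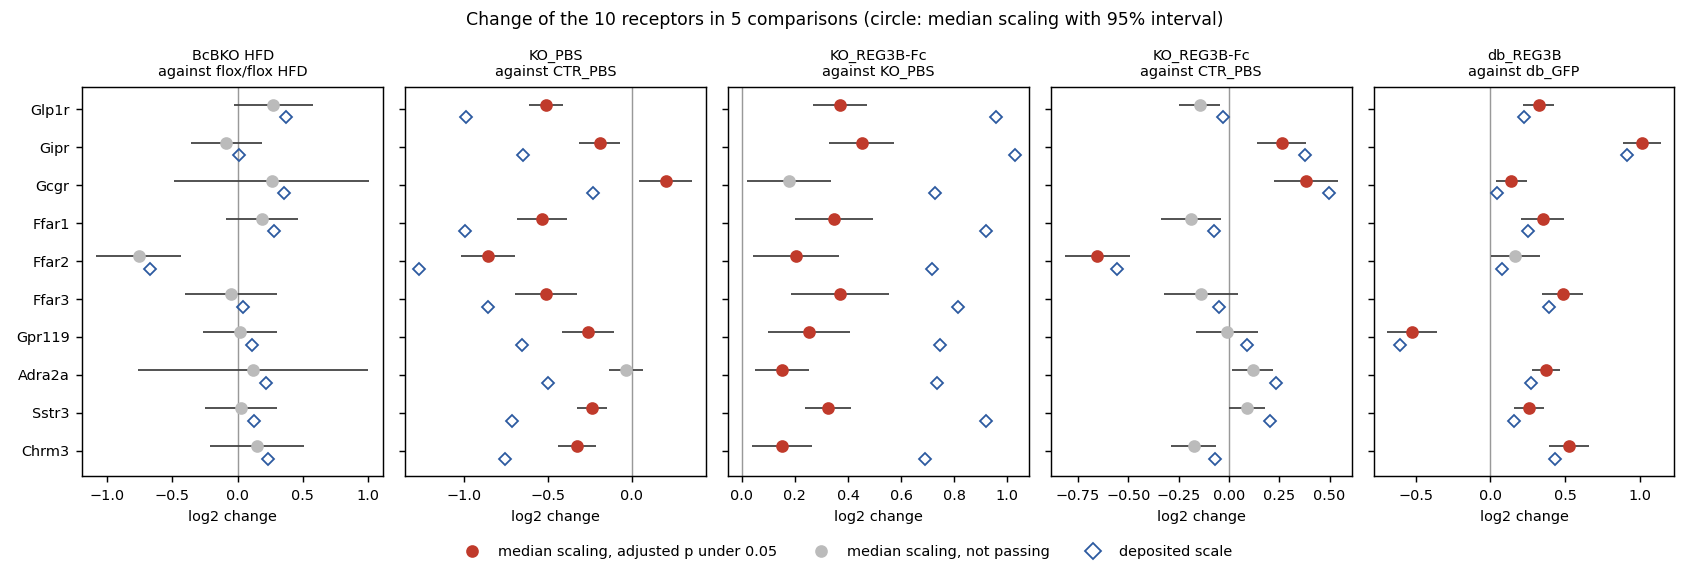
Log2 change of each receptor in 5 comparisons, one panel each with its own axis range: circles after median scaling with the 95% interval (red where the adjusted p is under 0.05), diamonds on the deposited scale. In KO_PBS against CTR_PBS 8 receptors are red and below 0 and Gcgr is red and above 0, where its diamond sits at -0.23. In db_REG3B against db_GFP Gipr sits at 1.01 and Gpr119 at -0.52, and 6 of the receptors drawn above 0 there fall below it when scaled to the sum without acinar and REG genes.

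In KO_REG3B-Fc islets, set against KO_PBS, 9 of the 10 receptors rose and 0 fell. Calls across all genes were 23.8% higher and 22.5% lower. The comparison asks what REG3B-Fc, a form of the secreted lectin REG3B, does in KO islets. The median of the 10 receptors was 0.29 log2, against 0.03 for all genes tested. As deposited, all 10 receptors rose, as did 86.2% of all genes, with 6.97% lower.

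In KO_REG3B-Fc the 2 incretin receptors rose, and both passed with every library left out in turn. Gipr had 32.20 and 30.69 FPKM in KO_REG3B-Fc, against 14.49 and 15.32 FPKM in KO_PBS. The groups were far apart, and Gipr rose by 0.45 log2 (SE 0.0537, adjusted p = 0.000246), or 1.03 log2 on the deposited scale. Glp1r had 54.93 and 53.56 FPKM in KO_REG3B-Fc, against 28.69 and 26.23 FPKM in KO_PBS, and rose by 0.37 log2 (SE 0.0439, adjusted p = 0.000248). Gcgr had 13.65 and 12.55 FPKM in KO_REG3B-Fc, against 7.90 and 7.13 FPKM in KO_PBS. Its change of 0.18 log2 did not pass (adjusted p = 0.0624), and it passed without KO_PBS replicate 1 (0.24 log2, adjusted p = 0.0458).

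The 4 lipid receptors all rose in KO_REG3B-Fc, with a median of 0.30 log2. Ffar1 had 25.79 and 24.89 FPKM in KO_REG3B-Fc, against 13.80 and 12.10 FPKM in KO_PBS, and rose by 0.35 log2 (adjusted p = 0.00272). Ffar3 had 4.03 and 4.48 FPKM in KO_REG3B-Fc, against 1.83 and 2.15 FPKM in KO_PBS, and rose by 0.37 log2 (adjusted p = 0.00619). Ffar2 had the smallest rise of the class after median scaling. In the authors' deposited log2 fold changes Ffar2 (0.42) was below Ffar3 (0.49) but above Ffar1 (0.37) and Gpr119 (0.30). Ffar2 had 7.96 and 6.78 FPKM in KO_REG3B-Fc, against 3.92 and 4.26 FPKM in KO_PBS, at 0.20 log2 (adjusted p = 0.0432). The Ffar2 call was lost without KO_PBS replicate 1 (adjusted p = 0.185) or KO_REG3B-Fc replicate 1 (adjusted p = 0.252), with no filter (adjusted p = 0.111), or with only the libraries compared (adjusted p = 0.0620). Gpr119 rose by 0.25 log2 (adjusted p = 0.0155), with 6.63 and 5.91 FPKM in KO_REG3B-Fc against 3.16 and 3.51 FPKM in KO_PBS, and lost its call without either of the same libraries (adjusted p = 0.0795 and 0.102).

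Both inhibitory receptors rose as well. Sstr3 had 79.06 and 80.30 FPKM in KO_REG3B-Fc, against 42.60 and 40.73 FPKM in KO_PBS. It rose by 0.32 log2 (SE 0.0385, adjusted p = 0.000240). Adra2a had 35.56 and 33.04 FPKM in KO_REG3B-Fc, against 19.97 and 20.47 FPKM in KO_PBS, and rose by 0.15 log2 (adjusted p = 0.0241). That call was lost without KO_PBS replicate 1 (adjusted p = 0.0976) or KO_REG3B-Fc replicate 1 (adjusted p = 0.134). Chrm3 rose by 0.15 log2 (adjusted p = 0.0341), with 10.42 and 10.63 FPKM in KO_REG3B-Fc against 6.34 and 5.97 FPKM in KO_PBS. It lost its call without KO_PBS replicate 2 (adjusted p = 0.133), KO_REG3B-Fc replicate 1 (adjusted p = 0.0597) or KO_REG3B-Fc replicate 2 (adjusted p = 0.162). Leaving out 1 library, 5 to 8 receptors rose, the lowest count without KO_REG3B-Fc replicate 1. The authors' deposited table calls 3 receptors higher, Glp1r, Gipr and Sstr3, and 0 lower, beside 1743 higher and 2380 lower among all genes.

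Marker lists changed in both directions here as well, beside 23.8% of all genes higher and 22.5% lower. Of the beta cell markers, 7 of 10 rose and 0 fell, with a share of 61.0 and 60.7% in KO_REG3B-Fc against 40.9 and 40.2% in KO_PBS. All 15 acinar markers fell, with a share of 14.7 and 14.8% in KO_REG3B-Fc against 34.7 and 35.7% in KO_PBS. Of 6 alpha cell markers 5 rose and 1 fell, with a share of 1.07 and 1.11% in KO_REG3B-Fc against 0.458 and 0.476% in KO_PBS. All 7 immune markers tested fell, with a share of 0.0102 and 0.00985% in KO_REG3B-Fc against 0.0279 and 0.0282% in KO_PBS. Stellate cell markers had 5 of 6 lower, with a share of 0.00224 and 0.00211% in KO_REG3B-Fc against 0.00379 and 0.00372% in KO_PBS. Delta cell markers had 2 of 3 higher (median 0.85 log2), with a share of 0.326 and 0.327% in KO_REG3B-Fc against 0.115 and 0.127% in KO_PBS. Both PP cell markers rose (median 0.72 log2), with a share of 0.477 and 0.500% in KO_REG3B-Fc against 0.196 and 0.210% in KO_PBS. The part of these cell types in the receptor changes was not tested.

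Set against CTR_PBS, KO_REG3B-Fc islets had Gipr and Gcgr higher and Ffar2 lower, and the other 7 receptors did not pass. By label these groups differ both in KO or CTR and in REG3B-Fc or PBS. No CTR group carries REG3B-Fc, so the part of each in these differences cannot be told apart. Calls across all genes were 4.95% higher and 6.12% lower. Ffar2 had 7.96 and 6.78 FPKM in KO_REG3B-Fc, against 11.63 and 10.94 FPKM in CTR_PBS. It fell by 0.65 log2 (adjusted p = 0.000975), or 0.56 log2 on the deposited scale, and passed with every library left out in turn. Gipr was at 32.20 and 30.69 FPKM in KO_REG3B-Fc, against 23.18 and 24.80 FPKM in CTR_PBS, and rose by 0.26 log2 (adjusted p = 0.0183). Its call was lost without CTR_PBS replicate 1 (adjusted p = 0.146), KO_REG3B-Fc replicate 1 (adjusted p = 0.0982) or KO_REG3B-Fc replicate 2 (adjusted p = 0.0772).

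Gcgr was at 13.65 and 12.55 FPKM in KO_REG3B-Fc, against 8.50 and 9.50 FPKM in CTR_PBS, without overlap. It rose by 0.38 log2 (adjusted p = 0.0103), a call lost without CTR_PBS replicate 1 (adjusted p = 0.0800) or KO_REG3B-Fc replicate 1 (adjusted p = 0.0732). Alpha cell markers had 5 of 6 higher, with a share of 1.07 and 1.11% in KO_REG3B-Fc against 0.535 and 0.520% in CTR_PBS. For delta cell markers 3 of 3 were higher, with a share of 0.326 and 0.327% in KO_REG3B-Fc against 0.129 and 0.128% in CTR_PBS. PP cell markers had 2 of 2 higher, and stellate cell markers 4 of 6 higher and 0 lower. Beta cell markers had 1 of 10 higher and 4 lower, and acinar markers 14 of 15 lower and 0 higher. These counts stand beside 4.95% of all genes higher and 6.12% lower. The part of these cell types in the Gcgr result was not tested. Glp1r differed by -0.15 log2 (adjusted p = 0.0739), Ffar1 by -0.19 (adjusted p = 0.103), Chrm3 by -0.17 (adjusted p = 0.0580) and Sstr3 by 0.09 (adjusted p = 0.186). On the deposited scale Adra2a and Sstr3 were also called higher, where calls were 16.8% higher and 2.87% lower across all genes.

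In db_REG3B islets, set against db_GFP, 8 of the 10 receptors rose relative to the median gene and Gpr119 fell. Calls across all genes were 24.1% higher and 24.0% lower, and 12.2% and 30.8% on the deposited scale. The median of the receptors was 0.34 log2, against 0.03 for all genes tested. The direction of 6 receptors depended on the scale: relative to the sum of FPKM without acinar and REG genes, which moves the median gene to -0.37 log2, Glp1r, Gcgr, Ffar1, Ffar2, Adra2a and Sstr3 were at -0.06 to -0.28 log2. On that scale 1 receptor, Gipr, rose and 5 fell, Glp1r, Gcgr, Ffar2, Gpr119 and Sstr3, beside 2.37% of all genes higher and 82.9% lower. Acinar markers held only 0.0528 to 0.109% of summed FPKM in the db libraries, and REG genes 0.00572 to 0.0124%. Leaving them out therefore hardly changes the sum here, and the scale is close to the plain sum of FPKM. Ins1 and Ins2 together made up 54.7 and 55.0% of that sum in db_REG3B, against 34.6 and 35.0% in db_GFP.

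Gipr and Gpr119 kept their direction and their call on all of these scales. Gipr had 32.36 and 36.18 FPKM in db_REG3B, against 17.84 and 17.44 FPKM in db_GFP. The groups did not overlap, and Gipr rose by 1.01 log2 (SE 0.0552, adjusted p = 3.67e-06), the 99.6th percentile of all genes tested, and by 0.59 log2 relative to the sum without acinar and REG genes. Gpr119 had 4.12 and 4.44 FPKM in db_REG3B, against 6.79 and 7.28 FPKM in db_GFP. It fell by 0.52 log2 (SE 0.0724, adjusted p = 0.000621), and by 0.61 log2 on the deposited scale. The authors' deposited table gives log2 fold changes of 1.05 for Gipr (adjusted p = 8.25e-29) and -0.62 for Gpr119 (adjusted p = 0.00628). It calls 7 receptors higher and 1 lower, beside 2083 higher and 2551 lower among all genes.

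Glp1r, the most abundant receptor here, had 245.74 and 270.59 FPKM in db_REG3B, against 225.46 and 215.85 FPKM in db_GFP. It rose by 0.32 log2 (SE 0.0440, adjusted p = 0.000562), but was at -0.12 log2 (adjusted p = 0.0411) relative to the sum without acinar and REG genes. Gcgr was nearly level in FPKM, at 27.18 and 27.63 in db_REG3B, against 26.60 and 26.51 in db_GFP. Its 0.14 log2 (adjusted p = 0.0345) was 0.04 on the deposited scale (adjusted p = 0.530), was -0.28 log2 relative to the sum without acinar and REG genes, and was lost without any 1 of the 4 libraries (adjusted p = 0.0566 to 0.165).

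Among the lipid receptors in the db table, Ffar3 rose, with 11.90 and 12.45 FPKM in db_REG3B against 9.24 and 8.82 FPKM in db_GFP (0.48 log2, adjusted p = 0.000301; 0.08 log2, adjusted p = 0.242, relative to the sum without acinar and REG genes). Ffar1 had 44.97 and 50.56 FPKM in db_REG3B, against 41.87 and 37.94 FPKM in db_GFP. It rose by 0.35 log2 (adjusted p = 0.00223), and was at -0.08 log2 on the scale without acinar and REG genes. Ffar2 had 13.26 and 12.93 FPKM in db_REG3B, against 13.23 and 11.57 FPKM in db_GFP, and the groups overlapped in FPKM. Its 0.17 log2 did not pass (adjusted p = 0.0876), passed without db_GFP replicate 1 (0.25 log2, adjusted p = 0.0378), and was -0.24 on the scale without acinar and REG genes. The 4 members of this class thus held 2 that rose, 1 that fell and 1 that did not pass.

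The inhibitory receptors and Chrm3 rose in db_REG3B. Adra2a had 59.09 and 61.82 FPKM in db_REG3B, against 50.54 and 49.24 FPKM in db_GFP (0.37 log2, adjusted p = 0.000173; -0.06 log2 without acinar and REG genes in the sum). Sstr3 had 63.13 and 66.72 FPKM in db_REG3B, against 59.65 and 56.35 FPKM in db_GFP (0.26 log2, adjusted p = 0.00190; -0.18 log2 without acinar and REG genes in the sum). Chrm3 had 15.63 and 17.05 FPKM in db_REG3B, against 11.97 and 11.66 FPKM in db_GFP. Its rise was 0.53 log2 (adjusted p = 0.000160), and 0.12 log2 (adjusted p = 0.0970) without acinar and REG genes in the sum.

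Several marker lists also changed in the db table, in both directions, beside 24.1% of all genes higher and 24.0% lower. Beta cell markers had 9 of 10 higher, with a share of 59.5 and 59.8% in db_REG3B against 40.6 and 40.8% in db_GFP. All 6 alpha cell markers fell, with a share of 1.91 and 1.88% in db_REG3B against 4.48 and 4.52% in db_GFP. All 6 stellate cell markers fell (median -2.18 log2), with a share of 0.0157 and 0.0163% in db_REG3B against 0.109 and 0.106% in db_GFP, and all 6 endothelial markers fell, with a share of 0.00264 and 0.00285% in db_REG3B against 0.00672 and 0.00674% in db_GFP. Ptf1a was listed at 0 in db_REG3B replicate 2 and Ms4a1 in both db_GFP libraries, and no alpha, stellate or endothelial marker was at 0. The part of these cell types in the receptor results was not tested.

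Ratios of 2 receptors within a library do not depend on how the library is scaled. With 2 libraries in each group the smallest two-sided p of an exact permutation test is 0.333, so the ratios are given as descriptions. The ratio of Glp1r to Ffar1 overlapped between groups in all 5 comparisons. It averaged 1.75 in BcBKO HFD against 1.64 in flox/flox HFD, 2.12 in KO_PBS against 2.07 in CTR_PBS, 2.14 in KO_REG3B-Fc, and 5.41 in db_REG3B against 5.54 in db_GFP. The 3 PBS comparisons share libraries.

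The ratio of Ffar2 to Ffar3 was lower without overlap in BcBKO HFD, in KO_PBS and in KO_REG3B-Fc against CTR_PBS, and in db_REG3B. It was 0.873 and 0.923 in BcBKO HFD, against 1.68 and 1.44 in flox/flox HFD. In the PBS table it was 1.98 and 1.51 in KO_REG3B-Fc, 2.14 and 1.98 in KO_PBS, and 2.70 and 2.40 in CTR_PBS. Its mean was 1.74 in KO_REG3B-Fc against 2.06 in KO_PBS, but the nearest libraries, at 1.98 each, cannot be told apart at the rounding of the deposited FPKM. In the db table it was 1.11 and 1.04 in db_REG3B, against 1.43 and 1.31 in db_GFP. The order of the 2 short-chain fatty acid receptors turned round only in BcBKO HFD, where Ffar2 was below Ffar3 in both libraries. The WT pools held 1.42 to 2.14.

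Glp1r and Gipr, the receptors of the 2 incretin hormones, did not keep their ratio. Glp1r to Gipr averaged 1.24 in BcBKO HFD against 0.955 in flox/flox HFD, 1.73 in KO_REG3B-Fc, 1.85 in KO_PBS and 2.31 in CTR_PBS, and 7.54 in db_REG3B against 12.5 in db_GFP. It was higher in BcBKO HFD, and lower in KO_PBS, in KO_REG3B-Fc against CTR_PBS and in db_REG3B, each without overlap, while KO_REG3B-Fc overlapped KO_PBS. Set against the inhibitory Adra2a, Glp1r averaged 1.36 in KO_PBS against 1.91 in CTR_PBS, without overlap, and 1.58 in KO_REG3B-Fc. Ffar1 to Gpr119 averaged 11.2 in db_REG3B against 5.69 in db_GFP, without overlap.

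**Figure D4:**
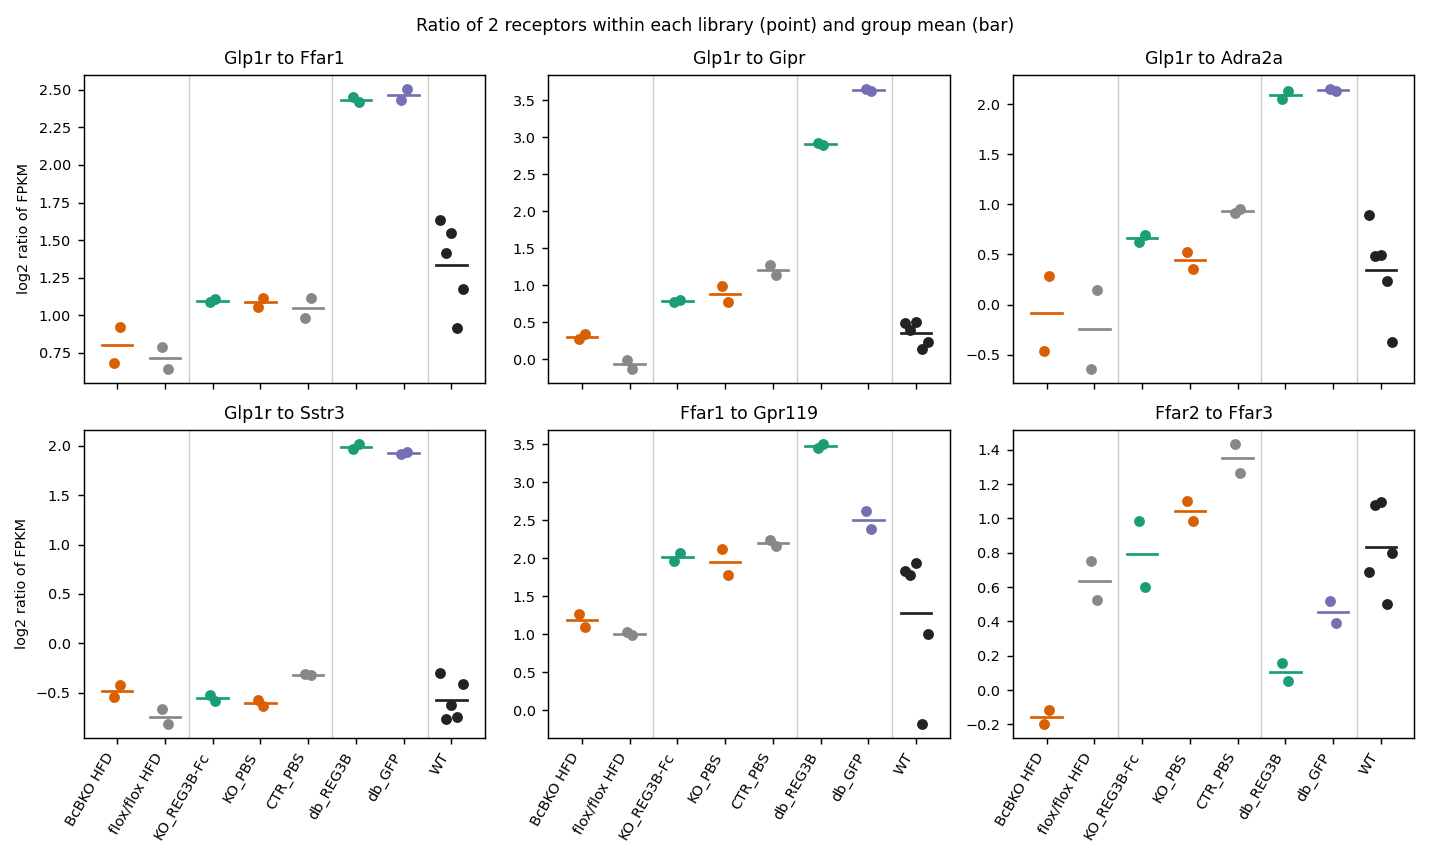
Log2 ratio of FPKM of receptor pairs (one panel each) within every library (points) with the group mean (bars); vertical lines part the 4 tables. Glp1r to Ffar1 overlaps between the groups of each comparison, and Ffar2 to Ffar3 lies lower without overlap in BcBKO HFD, in KO_PBS and KO_REG3B-Fc against CTR_PBS, and in db_REG3B, while the nearest KO_REG3B-Fc and KO_PBS points meet at 1.98 before the log.

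Other genes of receptor signalling were counted in 6 lists. In KO_PBS against CTR_PBS, cyclic AMP signalling genes had 12 of 18 tested lower and 1 higher (median -0.22 log2), G proteins 7 of 12 lower and 1 higher, and phospholipase C genes 5 of 10 lower and 0 higher, beside 25.9% of all genes lower. Rapgef4, which encodes the cyclic AMP sensor EPAC2, had 13.83 and 13.05 FPKM in KO_PBS, against 27.63 and 28.24 FPKM in CTR_PBS (-0.54 log2, adjusted p = 2.18e-05). Trpm5, an ion channel opened by calcium, had 2.65 and 2.67 FPKM in KO_PBS, against 7.92 and 7.57 FPKM in CTR_PBS (-0.87 log2). Both passed the test and neither group overlapped.

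Lists of other receptors and their regulators held calls in both directions in KO_PBS, beside 21.7% of all genes higher and 25.9% lower. Other islet G protein-coupled receptors had 7 of 17 higher and 4 lower, led by Cckar, a cholecystokinin receptor that acinar cells also express. Cckar had 39.98 and 40.62 FPKM in KO_PBS, against 22.84 and 22.82 FPKM in CTR_PBS (1.27 log2, adjusted p = 1.84e-07). Desensitization genes had 5 of 10 higher and 4 lower. Rgs4, a brake on G protein signalling, had 8.91 and 8.62 FPKM in KO_PBS, against 29.92 and 29.60 FPKM in CTR_PBS, and Rgs16 rose (0.85 log2). Of 6 ligand genes, 4 rose and 1 fell, and Gal, which encodes the neuropeptide galanin, was highest at 1.38 log2. Without median scaling, where 8.66% of all genes were called higher and 81.5% lower, the counts were 4 higher and 10 lower for other receptors, 3 and 6 for desensitization genes, and 1 and 5 for ligands.

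In KO_REG3B-Fc against KO_PBS, cyclic AMP signalling genes had 11 of 18 higher and 0 lower, phospholipase C genes 6 of 10 higher and 1 lower, and G proteins 5 of 12 higher and 2 lower, beside 23.8% of all genes higher and 22.5% lower. Trpm5 had 9.85 and 9.50 FPKM in KO_REG3B-Fc, against 2.65 and 2.67 FPKM in KO_PBS (1.05 log2). Cckar had 21.45 and 20.12 FPKM in KO_REG3B-Fc, against 39.98 and 40.62 FPKM in KO_PBS (-1.51 log2, adjusted p = 5.79e-08). Both were without overlap. Other receptors had 7 of 17 higher and 5 lower and desensitization genes 3 of 10 higher and 4 lower, counts that were 13 and 3, and 9 and 0, on the deposited scale, where 86.2% of all genes were higher and 6.97% lower. Of 6 ligand genes 4 rose and 1 fell. Gcg, which encodes glucagon, the ligand of Gcgr and the precursor of glucagon-like peptide, had 12331 and 12838 FPKM in KO_REG3B-Fc, against 4546 and 4779 FPKM in KO_PBS (0.83 log2).

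Against CTR_PBS, 4.95% of all genes were higher and 6.12% lower in KO_REG3B-Fc. Cyclic AMP genes had 1 of 18 lower, G proteins 2 of 12 lower, phospholipase C genes 1 of 10 higher, other receptors 4 of 17 higher and 2 lower, and desensitization genes 2 of 10 higher and 1 lower. On the deposited scale cyclic AMP genes had 1 higher and 0 lower, G proteins 3 higher and 0 lower, and phospholipase C genes 6 higher, beside 16.8% of all genes higher and 2.87% lower. Ligand genes had 4 of 6 higher after median scaling. Sst, which encodes somatostatin, the ligand of Sstr3, had 4413 and 4371 FPKM in KO_REG3B-Fc, against 1767 and 1801 FPKM in CTR_PBS (1.18 log2).

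In db_REG3B against db_GFP, other islet receptors had 10 of 20 lower and 4 higher (median -0.22 log2), beside 24.1% of all genes higher and 24.0% lower. Sstr1, another somatostatin receptor, had 0.76 and 0.71 FPKM in db_REG3B, against 5.47 and 4.68 FPKM in db_GFP (-1.74 log2), and Adora1, an adenosine receptor, rose (1.28 log2). Sstr1 was under 1 FPKM in both db_REG3B libraries, so it reached the filter on low values only through db_GFP, where it was high. Cyclic AMP genes had 8 of 20 higher and 2 lower, G proteins 5 of 12 higher and 3 lower, and phospholipase C genes 4 of 10 higher and 3 lower. Without median scaling the cyclic AMP count was 3 higher and 4 lower, beside 12.2% of all genes higher and 30.8% lower. Relative to the sum without acinar and REG genes, where 82.9% of all genes were lower and 2.37% higher, the counts were 1 higher and 18 lower for cyclic AMP genes, 2 and 9 for G proteins, and 1 and 6 for phospholipase C genes. Trpm5 had 24.46 and 22.87 FPKM in db_REG3B, against 6.90 and 7.55 FPKM in db_GFP (1.68 log2, adjusted p = 9.07e-07). Desensitization genes had 1 of 10 higher and 5 lower.

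Ligand genes had 4 of 6 lower and 0 higher in db_REG3B, beside 24.0% of all genes lower. Gal had 0.34 and 0.58 FPKM in db_REG3B, against 25.03 and 23.28 FPKM in db_GFP, a fall of 4.05 log2 (adjusted p = 4.59e-08). Both db_REG3B values of Gal were under 1 FPKM, so it reached the filter on low values only through db_GFP, where it was high. Gcg had 21326 and 21579 FPKM in db_REG3B, against 40448 and 41226 FPKM in db_GFP (-0.83 log2). Neither overlapped between groups. In BcBKO HFD against flox/flox HFD 0 of 69 tested members of the 6 lists passed limma's test. An unadjusted p under 0.05 was found for 2 of the 69 (2.90%), beside 298 of 11560 genes (2.58%).

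**Figure D5:**
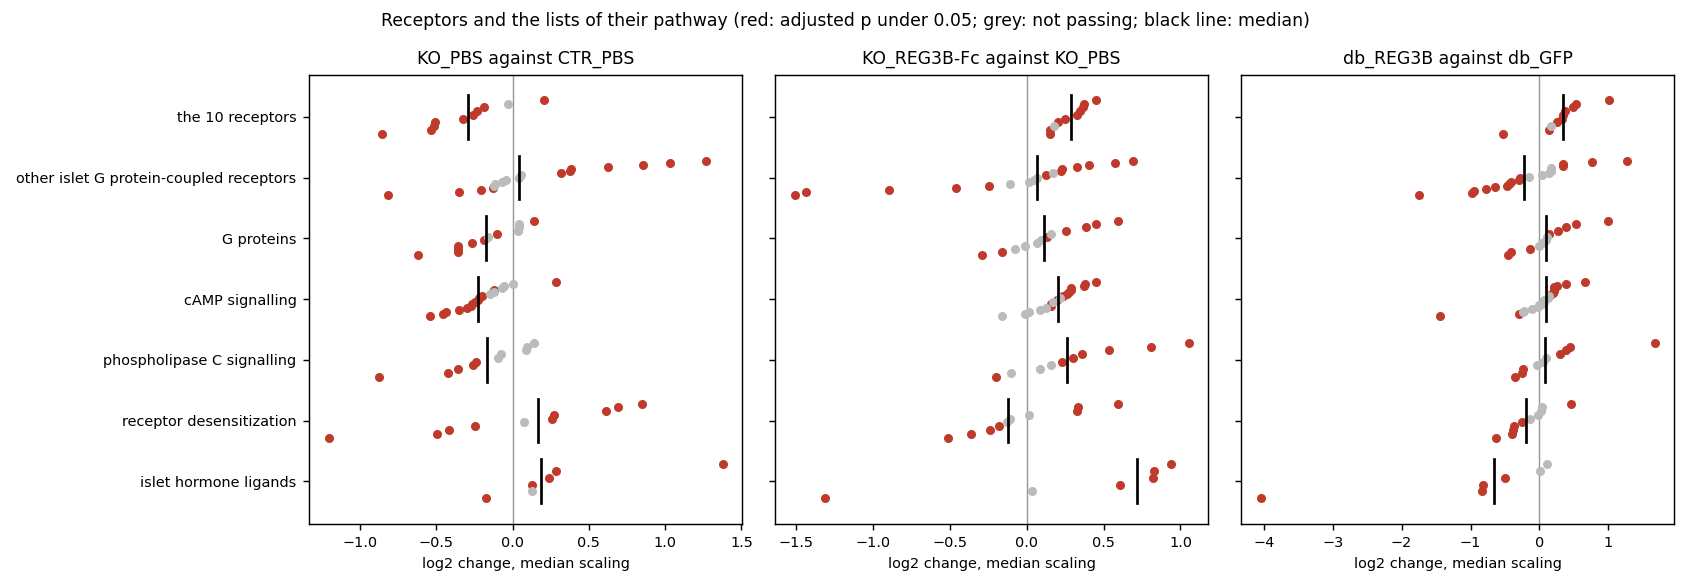
Log2 change after median scaling of the 10 receptors and of the members of 6 signalling lists (rows) in 3 comparisons (panels with their own axis range); red points passed at an adjusted p under 0.05, and black lines are medians. In KO_PBS against CTR_PBS the receptor median is -0.29 and the cyclic AMP median -0.22. In db_REG3B against db_GFP the receptor median is 0.34, and 6 receptors turn below 0 when scaled to the sum without acinar and REG genes. Gal is at -4.05 there, and reached the filter on low values only through db_GFP.

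Genes with the most similar pattern were ranked by Pearson's r of the scaled log2 values over the 19 libraries, each table centred on its mean, among 5924 genes. The libraries share groups and composition, so these values are descriptions. Gpr119 had the closest companions, Scgn at 0.970 (secretagogin, a calcium-binding protein of endocrine cells), Mef2a at 0.969 and Itfg1 at 0.951. However, Gpr119 was at 11.8 median-scaled FPKM in WT replicate 4, against 2.41 to 5.09 in the other WT pools. That library weighs heavily in all r values of Gpr119, and they were not computed without it. Gipr was closest to Atp2a3 at 0.927 (a calcium pump of the endoplasmic reticulum), Mafa at 0.914 (a beta cell transcription factor) and Sfxn2 at 0.910. Glp1r was closest to Txnrd1 at 0.908, Baz1b at 0.890 and Cirbp at 0.888.

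Sstr3 was closest to Pex26 at 0.938, Chd3 at 0.926 and Ercc3 at 0.916, and Adra2a to Sh3pxd2a at 0.924, Irf2bp2 at 0.916 and Plppr2 at 0.904. Ffar1 was closest to Cdhr1 at 0.901, Rab3gap2 at 0.877 and Zfp346 at 0.870. Gcgr was closest to Arglu1 at 0.880, Chkb at 0.878 and Srsf5 at 0.848, and Chrm3 to Ins1 at 0.863, Grin1 at 0.857 and Ap3d1 at 0.856. Ffar2 and Ffar3 averaged under 5 FPKM in at least 1 table and were not ranked. Among the receptors themselves, Glp1r correlated at 0.768 with Sstr3 and 0.735 with Ffar1, and Gpr119 at -0.547 with Sstr3.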

How the data were processed

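Islet messenger RNA was sequenced on the BGISEQ-500 in paired-end mode, per the labels' protocols. The labels name 25 samples in 10 groups, and values of 19 were analysed. The 6 chow samples were not analysed here. The authors deposited FPKM for all 19 libraries and TPM for the 4 HFD libraries. The authors also deposited log2 fold changes with adjusted p-values, which for the PBS and db tables came from DESeq2, per the file headers. The build is GRCm38.p6 per the submitters' processing notes, and the aligner and counter are not given in the sources used here. Columns were matched to labels by name, with 0 left over. Of the WT lines, 275 lacked a value and 50 identifiers repeated.

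FPKM were median scaled within a table and put on a log2 scale after adding 1 FPKM. Genes needed 1 FPKM or more in 2 or more libraries. The test was limma 3.58.1 (R 4.3.3) with a trended prior, two-sided, fitting the groups of each table together. Adjustment was Benjamini-Hochberg over all genes of a comparison, at a threshold of 0.05. The fit was checked on simulated data. Alternatives were the deposited scale, a sum without acinar and REG genes, a pseudocount of 0.1, no filter, a replicate block, only the libraries compared, and leaving out each library. Labels do not say that replicate pools came from separate mice, so p-values measure only the spread between these samples. The receptors and lists were chosen with earlier results of these data known. All receptors were named. Of each list up to 3 passing members with the largest change, or the one with the smallest p, could be named, and for likeness the 3 genes with the highest r at a mean of at least 5 FPKM in every table.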

Additional observations from a re-analysis of the deposited data

Results flagged for a closer look

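Adra2a in WT replicate 5 (35.48 FPKM) lay apart from the other 4 WT libraries, at 14.49 to 20.5 FPKM, by Dixon's criterion, which chance meets in about 1 in 20 groups. All 10 receptors were screened this way in WT, so a flag among them is likelier than that. The Adra2a gap was 0.714 of its range, and Gpr119, which was not flagged, came next at 0.671. Glp1r had changes of opposite sign in 2 comparisons that share no library: 0.27 log2 in BcBKO HFD against flox/flox HFD, which did not pass, and -0.51 log2 in KO_PBS against CTR_PBS. Ffar1 did likewise, at 0.19 log2 in BcBKO HFD against flox/flox HFD, which did not pass, and -0.54 log2 in KO_PBS against CTR_PBS. Gpr119 was at -0.52 log2 in db_REG3B against db_GFP and at 0.25 log2 in KO_REG3B-Fc against KO_PBS. In each of these comparisons the groups did not overlap after median scaling. In BcBKO HFD against flox/flox HFD, 12.9% of all genes were higher and 15.0% lower without overlap. Such shares were not counted for the other comparisons. The difference between these comparisons was not tested, since their tables were normalised separately.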

How the results depend on the processing

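Of 480 receptor values under alternatives, 405 kept their direction and their side of the threshold, 12 gained a call, 40 lost one and 23 reversed. The cause was not tested. On the deposited scale, genes higher and lower were 1021 and 9603 in KO_PBS against CTR_PBS, 10157 and 822 in KO_REG3B-Fc against KO_PBS, 1977 and 338 in KO_REG3B-Fc against CTR_PBS (4 receptors higher), and 1530 higher in db_REG3B against db_GFP. Reversed there were Gipr (0.00990) and Ffar3 (0.0391) in BcBKO HFD, Gcgr (-0.23) in KO_PBS, with 0 receptors higher, and Gpr119 (0.0918) in KO_REG3B-Fc against CTR_PBS.

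Scaled to the sum without acinar and REG genes, Gipr (0.00709) and Ffar3 (0.0345) reversed in BcBKO HFD, Adra2a (0.0117) in KO_PBS, Gpr119 (0.0971) in KO_REG3B-Fc against CTR_PBS, and Glp1r (-0.12), Gcgr (-0.28), Ffar1 (-0.0803), Ffar2 (-0.24), Adra2a (-0.0627) and Sstr3 (-0.18) in db_REG3B. Genes higher and lower were then 1968 and 309 in KO_REG3B-Fc against CTR_PBS (4 receptors higher) and 297 and 10371 in db_REG3B (1 receptor higher, 5 lower). With no filter, 0 genes were higher in BcBKO HFD, 0 receptors higher in KO_PBS, and 367 and 392 genes higher and lower in KO_REG3B-Fc against CTR_PBS, with 0 receptors higher. With only the libraries compared, 0 receptors were higher in KO_PBS and 3 lower in KO_REG3B-Fc against CTR_PBS. In KO_REG3B-Fc against KO_PBS that setting lost Ffar2 (adjusted p = 0.0620) and Chrm3 (0.0547) and gained Gcgr (0.0457), and no filter lost Ffar2 (0.111) and Gpr119 (0.0516).

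Labels do not pair equal replicate numbers. Differences of replicate 1 and 2 correlated at 0.670 between the HFD groups and at -0.0507 to 0.0469 elsewhere. With a replicate block, 2 genes were higher and 2 lower in BcBKO HFD, where the Ffar2 adjusted p was 0.119, and 0 receptors were higher in KO_PBS, 8 in KO_REG3B-Fc against KO_PBS and 7 in db_REG3B. Leaving out 1 library, BcBKO HFD held 0 to 1 genes higher, and its log2 changes ran -0.0148 to 0.0527 for Gpr119, -0.162 to 0.0631 for Ffar3, -0.32 to 0.55 for Adra2a and -0.11 to 0.64 for Gcgr. KO_PBS held 1959 to 2628 genes lower (the fewest without CTR_PBS replicate 1) and 0 to 1 receptors higher. KO_REG3B-Fc held 5 to 8 receptors higher against KO_PBS, and 215 to 265 genes higher, 262 to 347 lower, 0 to 2 receptors higher and Gpr119 at -0.0636 to 0.0461 against CTR_PBS. Where an arm was left with 1 library, that library was assumed to vary like the others. Depth is unknown, so no detection limit was computed.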
